A study of Mus musculus with 30 samples.

Results

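The expression of 6 genes of natriuretic peptide signalling was followed in left ventricular RNA from 30 male wild type C57BL6J mice (C57BL6 in some labels). They comprise *Nppa* and *Nppb*, which encode the atrial and B-type natriuretic peptides, *Corin*, which encodes a protease that cleaves the atrial prohormone, and the receptor genes *Npr1*, *Npr2* and *Npr3*. The 6 genes were taken by symbol, as the family's cardiac ligands, processing enzyme and receptors, and all 6 were present, out of 49671 genes listed for the peptide experiment and 56386 features listed for the antibody experiment. In the peptide study, 7 mice were injected daily with Aβ42, the amyloid beta peptide of 42 residues, and 7 with a scrambled peptide, ScrAβ42, from 12 weeks of age for 4 weeks. The labels give the dose as 1 mg per day, whereas the methods state it in micrograms. In the antibody study, 8 mice were injected weekly with 3D6, an antibody against Aβ, and 8 with an IgG2a isotype control antibody, both at 0.75 mg per kg. These mice had a baseline examination at 12 weeks of age before treatment, which is described as lasting 4 months in one place and as shorter in the timeline of the methods. The methods describe these mice as fed a high-fat diet, while the series' design text says they had been given Aβ42, so the background that 3D6 and control mice share is not settled by these sources. Each heart is 1 library and is named here by its label. The closest pair of hearts in any group differed by a chi-square of 3.57 per degree of freedom, where sampling noise alone gives about 1.

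Natriuretic peptides are made by heart muscle cells, stored or released in response to wall stretch, and act on kidney, vessels and the heart itself. *Nppa* is abundant in the atria and falls to a low level in most of the adult ventricle after birth, where its return is a widely used sign of load or stress. Both ligands activate NPR1, a membrane guanylyl cyclase that makes cGMP, while C-type natriuretic peptide acts on NPR2, and NPR3 has no cyclase domain and removes the peptides from the circulation. The comparisons ask whether Aβ42, or an antibody against it, altered the RNA of this system in the ventricle.

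*Nppb* and *Nppa* are neighbouring genes, both read from the plus strand (GRCm38). *Nppb* lies at chr4:147985788-147987205 and *Nppa* at chr4:148000722-148002079, with 13516 bases between them. Bases upstream of the RefSeq starts of the ligand genes are shown because the heart-to-heart spread of *Nppa* and *Nppb* was wide, as described below. They come from the RefSeq promoter table of GRCm38.p6, which held all 6 genes. Both strands were searched for motifs of cardiac transcription factors, and capitals mark the matches. A GATA factor site was searched as the letters GATAA. A T-box factor site was searched as TCACACC, and a site of NK2 factors such as NKX2-5 as TNAAGTG. The M-CAT element, bound by TEAD factors, was searched as CATTCC, and the TATA box as TATAAA. The first line is chr4:148000472-148000721, the 250 bases before the *Nppa* start, and the other two are chr4:147985795-147985821 and chr4:147985859-147985888 before the RefSeq start of *Nppb*. That start lies 112 bases inside the GENCODE span of *Nppb* given above, so both *Nppb* stretches fall within that span.
Nppa upstream: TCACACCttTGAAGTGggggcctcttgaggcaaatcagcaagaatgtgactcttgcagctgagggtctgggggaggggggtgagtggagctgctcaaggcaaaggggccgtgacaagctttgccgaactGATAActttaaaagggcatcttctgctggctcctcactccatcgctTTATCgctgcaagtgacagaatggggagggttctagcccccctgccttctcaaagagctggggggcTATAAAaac
Nppb M-CAT and GATA: GGAATGcagctGATAAatcagaGATAA
Nppb TATA: tcagccccagTATAAAaggcagaggcaccg
Within 250 bases, both ligand genes held 2 GATAA matches and 1 TATAAA match, *Nppa* also held 1 TCACACC and 1 TNAAGTG match, and *Nppb* 1 CATTCC match. The other 4 genes held none of the 5 motifs. Of 32817 RefSeq promoters, 22.6% held GATAA, 3.33% TCACACC, 10.1% TNAAGTG, 12.6% CATTCC and 12.4% TATAAA in the same window. No motif overlapped another in the stretches shown.

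Sequencing depth ran from 4478991 to 6015767 counts a heart for the peptide experiment and from 6397192 to 8310478 for the antibody experiment. The cardiomyocyte markers *Myh6*, *Tnnt2*, *Tnni3*, *Ttn* and *Actn2* were high in every heart, and their summed level was between 36160 and 67810 CPM (counts relative to the TMM-scaled total of each library). Markers of atrial muscle were not absent. The summed level of *Sln*, *Myl7*, *Myl4*, *Bmp10* and *Mybphl* ranged from 12.3 to 8387 CPM with Aβ42, from 3.81 to 3652 CPM with ScrAβ42, from 1.05 to 666 CPM with 3D6 and from 0.819 to 2768 CPM with control antibody. It was over 100 CPM in 5 of 7 Aβ42 hearts (Abeta42_3451, Abeta42_3455, Abeta42_3457, Abeta42_3458 and Abeta42_3460), in 1 of 7 ScrAβ42 hearts (ScrAbeta42_3448), in 4 of 8 3D6 hearts (3D6_7, 3D6_12, 3D6_20 and 3D6_21) and in 2 of 8 control antibody hearts (Con_11 and Con_15). *Bmp10* was at 0 counts in 4 of 14 and 7 of 16 hearts, *Sln* in 1 and 7, *Mybphl* in 0 and 6, and *Myl7* in 0 and 3. The Aβ42 heart Abeta42_3457 stood furthest apart, with 8387 CPM of atrial markers, 519 CPM of adipocyte markers and 801 CPM of the ventricular light chain *Myl2*, which was at least 3671 CPM in the other 13 hearts of the study. The mitochondrial share of counts was 12.9% in Abeta42_3457 and 13.8% in ScrAbeta42_3448, the lowest of the peptide experiment, and 17.3% to 22.2% in its other 12 hearts. It was 25.9% to 37.8% in the antibody experiment, and its part in the values below was not tested. In bulk tissue, more cells of a type and more RNA per cell cannot be told apart.

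No gene of the system passed the test in either comparison. In the edgeR quasi-likelihood test with Benjamini-Hochberg adjustment, 0 of the 6 genes had an adjusted p under 0.05 with Aβ42, and 0 of 11985 genes tested (0%) did so. At an unadjusted p under 0.05, 2 of the 6 genes (*Npr3* and *Corin*) stood beside 780 of all genes (6.51%). This count was 3 with DESeq2 and with limma-voom, *Nppa* being the third, beside 731 and 688 of all genes. The count was also 3 without a filter on low counts, beside 1475 of 25203 genes. Leaving out any 1 of Abeta42_3452, Abeta42_3456, Abeta42_3460 and ScrAbeta42_3448 gave 3 as well, beside 956, 924, 973 and 1267 genes. Only *Npr3* passed with total-count scaling (beside 654 genes) or without any 1 of ScrAbeta42_3441, ScrAbeta42_3442 and ScrAbeta42_3449 (beside 716, 657 and 716). None of the 6 passed with the mean log2 CPM of atrial markers as a covariate (beside 897 genes) or without the hearts over 100 CPM of atrial markers (beside 505). With 3D6, 0 of the 6 genes and 0 of 12274 genes tested (0%) had an adjusted p under 0.05, and 0 of the 6 stood beside 447 genes (3.64%) at the unadjusted threshold. There DESeq2 gave 1 of the 6, *Nppa*, for which it had replaced an outlying count in 1 heart, beside 450 of all genes. With outlier counts kept DESeq2 gave 0 of the 6, beside 445 of all genes. DESeq2 called 12 genes with Aβ42 and 0 with 3D6, limma-voom called 0 in both, and neither called any of the 6. All 6 genes were tested in both studies.

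**Figure D1:**
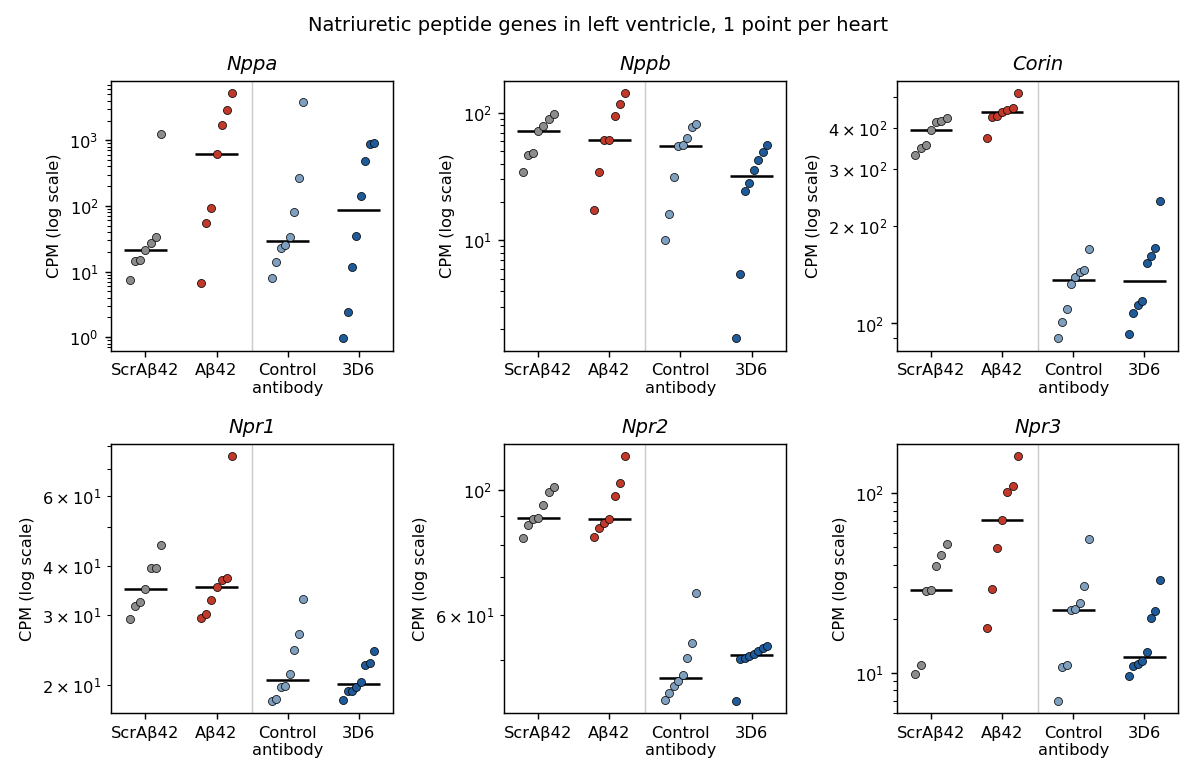
CPM of the 6 genes on a log axis, 1 point per heart, with the median of each group as a black line; the peptide study is left and the antibody study right of the grey line in each panel. *Nppa* spans 6.72 to 5199 CPM among the 7 Aβ42 hearts and 0.956 to 906 CPM among the 8 3D6 hearts, while *Npr2* varies little within a study.

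*Nppa*, the atrial natriuretic peptide gene, had one of the widest spreads between hearts of all genes. It was at 6.72, 615 and 5199 CPM in the lowest, median and highest Aβ42 heart, and at 7.33, 21.4 and 1259 CPM in ScrAβ42 hearts. Of the 7 Aβ42 hearts, 6 were above the ScrAβ42 median and 3 above every ScrAβ42 heart, whereas 1 was below every ScrAβ42 heart, so the groups overlapped at both ends. The fitted log2 fold change was 2.93 with a standard error of 1.4 and a 95% interval from -0.05 to 5.92 (edgeR, unadjusted p = 0.0536, adjusted p = 0.762). An exact two-sided permutation test of the difference in mean log2 CPM gave p = 0.0559 (n = 7 and 7).

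Single hearts set the size of this difference. Without ScrAbeta42_3448, which had 1259 CPM where the other 6 had at most 33.8, the log2 fold change was 6.24 (adjusted p = 0.191), and without Abeta42_3457 it was 2.18 (adjusted p = 0.967). The adjusted p ranged from 0.191 to 0.967 over the 14 fits that each left out 1 heart. *Nppa* moved with the atrial markers: it was between 93.6 and 5199 CPM in the 6 hearts with over 100 CPM of atrial markers and between 6.72 and 54.6 CPM in the other 8. With the mean log2 CPM of the atrial markers as a covariate the log2 fold change was 0.49 (edgeR, adjusted p = 0.9), and in the 2 Aβ42 and 6 ScrAβ42 hearts at or under 100 CPM it was 0.60 (edgeR, adjusted p = 1).

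In the antibody study, *Nppa* was at 0.956, 87.3 and 906 CPM in the lowest, median and highest 3D6 heart and at 8.09, 29.1 and 3815 CPM with control antibody. The highest heart had the control antibody, the 2 lowest had 3D6, and 5 of 8 3D6 hearts were above the control median. The log2 fold change was -0.79 with a standard error of 1.29 and a 95% interval from -3.50 to 1.92 (edgeR, adjusted p = 0.946), and the exact two-sided permutation test gave p = 0.923 (n = 8 and 8). The sign rested on Con_15, since it was 2.27 without it. DESeq2, which replaced the *Nppa* count of 1 heart as an outlier, gave 2.14, and -0.80 with that count kept. In this study, too, the 6 hearts over 100 CPM of atrial markers had 139 to 3815 CPM of *Nppa* and the other 10 had 0.956 to 80.7 CPM. Over those 10 hearts alone the log2 fold change was -1.26. With the atrial marker covariate over all hearts it was -1.01 (edgeR, adjusted p = 0.986).

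The pooled standard deviation of *Nppa* within groups was 2.99 (peptide) and 3.33 (antibody) on the log2 CPM scale, the 10th largest of 11985 and the 9th largest of 12274 genes, where the median gene had 0.23 and 0.28. *Nppa* has 1 annotated transcript. An antisense gene, Gm13054, overlaps 532 bases of its exons and was counted 131 and 1080 times in all hearts of the peptide and antibody studies, beside 73883 and 49689 counts of *Nppa*.

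*Nppb*, the B-type natriuretic peptide gene of the ventricle, had smaller differences between the medians than *Nppa*. It was at 17.2, 60.9 and 142 CPM in the lowest, median and highest Aβ42 heart and at 34.6, 72.5 and 98.6 CPM with ScrAβ42. Aβ42 hearts lay both above and below the ScrAβ42 range, 2 on each side. For *Nppb* the log2 fold change was 0.18 with a standard error of 0.37 and a 95% interval from -0.61 to 0.96 (edgeR, adjusted p = 0.957), and its sign was negative with limma-voom. With 3D6, *Nppb* was at 1.70, 32.0 and 56.1 CPM, and with control antibody at 10.1, 55.1 and 81.9 CPM. The 2 lowest hearts had 3D6 (3D6_4 and 3D6_24, at 5.42 and 1.70 CPM), and 3 control hearts were above every 3D6 heart, giving a log2 fold change of -0.68 with a standard error of 0.49 and a 95% interval from -1.71 to 0.35 (edgeR, adjusted p = 0.946). The within-group standard deviation of *Nppb* was 0.85 and 1.44 on the log2 CPM scale, the 362nd and 103rd largest, beside 1.04 and 0.80 for *Npr3*, the 230th and 308th largest.

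The ratio of the ligands within a heart was compared as log2 of the *Nppa* to the *Nppb* count, which does not depend on scaling between hearts. It was 2.46 ± 2.86 (SD, n = 7) with Aβ42 and -0.94 ± 2.16 (SD, n = 7) with ScrAβ42. All 7 Aβ42 hearts were above the ScrAβ42 median, 5 of 7 had more *Nppa* than *Nppb* counts, and 1 of 7 ScrAβ42 hearts (ScrAbeta42_3448) did. The difference of 3.40 had an exact two-sided permutation p of 0.0315, and 0.0664 when adjusted over the 4 ratio tests made. In the 8 hearts at or under 100 CPM of atrial markers the difference was 0.48 (exact permutation p = 0.429). With 2 Aβ42 and 6 ScrAβ42 hearts there are 28 arrangements, and the smallest two-sided p possible is 0.0714, so this p could not pass 0.05. With 3D6 the ratio was 1.38 ± 2.72 (SD, n = 8), against 0.60 ± 2.59 (SD, n = 8) with control antibody, a difference of 0.77 (exact permutation p = 0.564). Single hearts moved it from 0.29 (without Con_3) to 1.53 (without Con_15). In the 10 hearts of this study at or under 100 CPM of atrial markers the sign turned, to -0.39 (exact permutation p = 0.667).

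**Figure D2:**
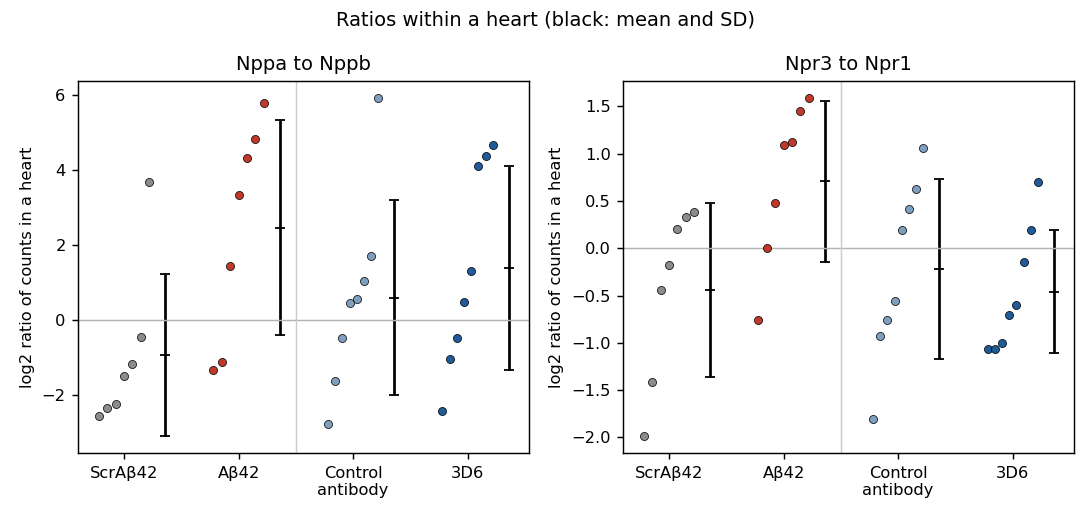
Log2 ratio of counts within each heart for *Nppa* to *Nppb* (left) and *Npr3* to *Npr1* (right), 1 point per heart, with the group mean and SD as black bars. The Aβ42 hearts have a mean of 2.46 against -0.94 in the left panel and of 0.71 against -0.44 in the right panel, with overlapping points in both.

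*Corin* encodes a transmembrane serine protease of cardiomyocytes that converts the atrial prohormone to the active peptide. It lies on the minus strand at chr5:72300025-72504473. *Corin* was at 374, 449 and 512 CPM in the lowest, median and highest Aβ42 heart and at 330, 395 and 430 CPM with ScrAβ42. Of the 7 Aβ42 hearts, 6 were above every ScrAβ42 heart, and the other (Abeta42_3452) was below the ScrAβ42 median. Its log2 fold change was 0.21 with a standard error of 0.08 and a 95% interval from 0.03 to 0.39, or 1.16-fold (edgeR, unadjusted p = 0.0247, adjusted p = 0.709), and the exact two-sided permutation test gave p = 0.021 (n = 7 and 7). The highest *Corin* level was that of Abeta42_3457, without which the log2 fold change was 0.17. It was 0.11 with the atrial marker covariate and 0.10 in the 8 hearts at or under 100 CPM of atrial markers.

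With 3D6, *Corin* was at 92.9, 135 and 238 CPM, and with control antibody at 89.9, 136 and 169 CPM, so that the medians nearly coincided. The fitted difference on the log2 scale was 0.16 with a standard error of 0.17 and a 95% interval from -0.20 to 0.53 (edgeR, adjusted p = 0.946), and it was 0.02 without 3D6_4, the heart of 238 CPM. This difference was 0.24 without Con_15 or without 3D6_16, and 0.30 in the 10 hearts at or under 100 CPM of atrial markers. In this study, where transcripts were listed separately, Corin-202 held 62.9% and Corin-201 36.9% of the *Corin* counts over all 16 hearts. The share of Corin-202 in single hearts ran from 28% to 97.9%, with medians of 69.4% with 3D6 and 69.7% with control antibody, and these shares come from the authors' estimate of how reads divide between 2 largely overlapping transcripts.

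Among the receptors, *Npr3* was the gene with the largest difference between Aβ42 and ScrAβ42 hearts. It encodes the clearance receptor, which binds natriuretic peptides and carries them into the cell, and lies on the minus strand at chr15:11839896-11907287. *Npr3* was at 17.8, 71.5 and 162 CPM in the lowest, median and highest Aβ42 heart and at 9.85, 29.1 and 52.1 CPM with ScrAβ42. A total of 6 of 7 Aβ42 hearts were above the ScrAβ42 median and 4 above every ScrAβ42 heart (Abeta42_3455, Abeta42_3456, Abeta42_3457 and Abeta42_3458). Fitted over all hearts, it had a log2 fold change of 1.34 with a standard error of 0.46 and a 95% interval from 0.37 to 2.31, or 2.53-fold (edgeR, unadjusted p = 0.01, adjusted p = 0.69), and the exact two-sided permutation test gave p = 0.0507 (n = 7 and 7).

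The log2 fold change of *Npr3* stayed between 1.05 and 1.53 when any 1 heart was left out. It was 0.73 with the atrial marker covariate and 0.92 in the 8 hearts at or under 100 CPM of atrial markers, both with an adjusted p of at least 0.767 in edgeR. *Npr3* was between 17.8 and 162 CPM in the 6 hearts above that level and between 9.85 and 71.5 CPM in the other 8, and the 2 Aβ42 hearts among the latter, Abeta42_3456 and Abeta42_3452, had 71.5 and 29.5 CPM. With 3D6, *Npr3* was at 9.57, 12.3 and 33.1 CPM and with control antibody at 6.96, 22.5 and 56.1 CPM. One of 8 3D6 hearts was above the control median, and the log2 fold change was -0.49 with a standard error of 0.36 and a 95% interval from -1.24 to 0.26 (edgeR, adjusted p = 0.946). It was -0.24 in the 10 hearts at or under 100 CPM of atrial markers and -0.15 without Con_15.

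*Npr1*, the cyclase receptor of both cardiac ligands, lies on the minus strand at chr3:90450591-90465866. It was at 29.5, 35.4 and 75.7 CPM with Aβ42 and at 29.3, 35.0 and 45.2 CPM with ScrAβ42. The value of 75.7 CPM belonged to Abeta42_3457, and the other 6 Aβ42 hearts were at most at 37.1 CPM. The log2 fold change was 0.14 with a standard error of 0.19 and a 95% interval from -0.26 to 0.55 (edgeR, adjusted p = 0.936), and -0.10 without Abeta42_3457. With 3D6, *Npr1* was at 18.3, 20.0 and 24.4 CPM against 18.2, 20.6 and 33.0 CPM, a log2 fold change of -0.13 with a standard error of 0.12 and a 95% interval from -0.38 to 0.12 (edgeR, adjusted p = 0.946), and it was -0.03 without Con_22, the heart of 33.0 CPM. In the 10 hearts at or under 100 CPM of atrial markers the log2 fold change was -0.23.

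*Npr2*, the cyclase receptor of C-type natriuretic peptide, lies on the plus strand at chr4:43631935-43651244 and was the steadiest of the 6 genes. It was at 82.7, 88.9 and 115 CPM with Aβ42 and at 82.2, 89.1 and 101 CPM with ScrAβ42, a log2 fold change of 0.04 with a standard error of 0.08 and a 95% interval from -0.12 to 0.21 (edgeR, adjusted p = 0.95). With 3D6 it was at 42.2, 51.1 and 52.8 CPM against 42.4, 46.4 and 65.7 CPM with control antibody. Most 3D6 hearts, 7 of 8, were above the control median, and 2 control hearts were above every 3D6 heart. This gave a log2 fold change of 0.03 with a standard error of 0.09 and a 95% interval from -0.15 to 0.22 (edgeR, adjusted p = 0.962), and it was 0.11 without Con_22. The bounds of both intervals lie between -0.15 and 0.22. With 3D6 the difference in mean log2 CPM was 0.04 (unadjusted exact permutation p = 0.636). Without the values of 3D6_17 and Con_22, which lay over 2 SD from their group means, it was 0.14 (unadjusted exact permutation p = 0.0152). These were the lowest 3D6 and the highest control value, so leaving them out had to widen the difference. That p does not allow for the choice of values left out, and nothing is concluded from it.

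The balance of clearance to signalling receptor was compared as the log2 ratio of *Npr3* to *Npr1* counts within a heart. It was 0.71 ± 0.85 (SD, n = 7) with Aβ42 and -0.44 ± 0.92 (SD, n = 7) with ScrAβ42, with 5 of 7 Aβ42 hearts above every ScrAβ42 heart. The difference of 1.15 had an exact two-sided permutation p of 0.0332, and 0.0664 when adjusted over the 4 ratio tests. In the 8 hearts at or under 100 CPM of atrial markers it was 1.11, with an exact permutation p of 0.214 where the smallest possible for 2 against 6 hearts is 0.0714. The 2 Aβ42 hearts differed, with 1.12 in Abeta42_3456 and 0.00 in Abeta42_3452, the latter inside the ScrAβ42 range of -1.99 to 0.38. With 3D6 the ratio was -0.46 ± 0.65 (SD, n = 8) and with control antibody -0.22 ± 0.96 (SD, n = 8), a difference of -0.24 (exact permutation p = 0.554), which ran from -0.47 (without Con_18) to -0.06 (without Con_15) when 1 heart was left out. In the 10 hearts of this study at or under 100 CPM of atrial markers the sign turned, to 0.04 (exact permutation p = 0.99).

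**Figure D3:**
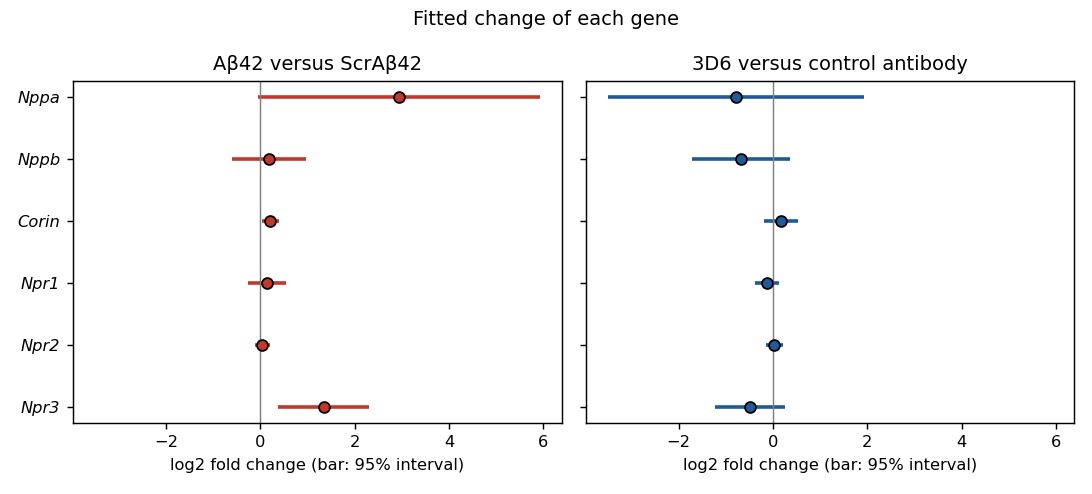
Fitted log2 fold change of each gene (point) with its 95% interval (bar) for Aβ42 versus ScrAβ42 (left) and 3D6 versus control antibody (right). The intervals of *Npr3* (0.37 to 2.31) and *Corin* (0.03 to 0.39) in the left panel lie above 0, before adjustment for the genes tested.

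Per kilobase of the main transcript, a scale on which genes can be compared, the order of the median levels in ScrAβ42 hearts was *Nppb* (92.9 CPM per kilobase), *Corin* (85.1), *Nppa* (24.8), *Npr2* (24.4), *Npr1* (8.61) and *Npr3* (4.22). *Nppb* and *Corin* overlapped in range (44.2 to 126 and 71.1 to 92.8), as did *Npr1* and *Npr3*, while the ranges of *Npr2* and *Npr1* (22.4 to 27.6 and 7.21 to 11.1) were apart. The range of *Nppa*, from 8.48 to 1456, overlapped those of *Nppb*, *Corin*, *Npr2* and *Npr1*, so its place among them is not separated. In Aβ42 hearts *Nppa* came first with a median of 711 CPM per kilobase and a range from 7.77 to 6010, which took in the medians of the other 5 genes. In 3D6 hearts, too, *Nppa* came first with a median of 100.9 CPM per kilobase and a range from 1.1 to 1047, before *Nppb* (40.95), *Corin* (29.2), *Npr2* (13.9), *Npr1* (4.93) and *Npr3* (1.79). In control antibody hearts the order was *Nppb* (70.6), *Nppa* (33.6), *Corin* (29.3), *Npr2* (12.7), *Npr1* (5.07) and *Npr3* (3.27). The studies were processed separately, so levels are not compared between them. In both, the main transcript was the one with most estimated counts in the antibody study, and all counts of a gene were divided by its length. It held 67.8% of the *Npr2* and 62.9% of the *Corin* counts of that study, so the scale is approximate.

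**Figure D4:**
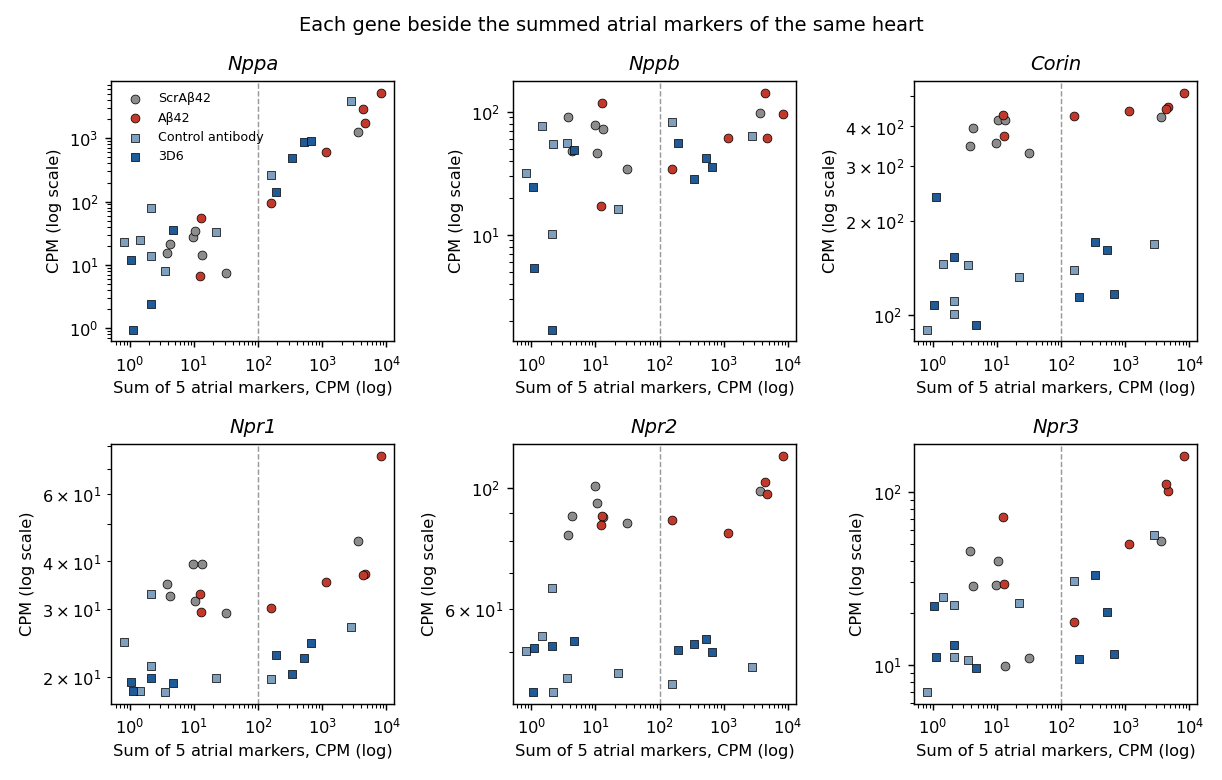
CPM of each gene against the summed CPM of 5 atrial markers in the same heart, both on log axes, circles for the peptide and squares for the antibody study, with 100 CPM as a dashed line. In the peptide study the 6 hearts right of the line have 93.6 CPM of *Nppa* or more, and the 8 left of it at most 54.6 CPM. In the antibody study the 6 hearts right of it have 139 CPM or more, and the 10 left of it at most 80.7 CPM.

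The genes whose levels ranked hearts most like each of the 6 were found by Spearman's rho over the hearts of a study, which share library depth and tissue sampling, and are given as a description. In the peptide study (14 hearts), *Galns*, *Smarcal1* and *Olfml1* were most like *Nppa* (0.965, 0.956 and 0.938), *Dcun1d3*, *Wdr44* and *Golga5* most like *Nppb* (0.93, 0.93 and 0.881), and *Carns1*, *Igf1r* and *Sbk3* most like *Corin* (0.925, 0.916 and 0.916). For the receptors these were *Tgfb2*, *Evc* and *Cdon* for *Npr1* (0.96, 0.938 and 0.934), *Enpep*, *Casp12* and *Elmo1* for *Npr2* (0.916, 0.908 and 0.908), and *Gpr182*, *Cyp1b1* and *Adgra2* for *Npr3* (0.969, 0.96 and 0.956). In the antibody study (16 hearts), *Dkk3*, *Gm13054* and *Col3a1* were most like *Nppa* (0.929, 0.909 and 0.9), *Gm13054* being its antisense gene. The atrial markers *Myl4*, *Mybphl*, *Sln* and *Myl7* ranked 5th, 6th, 21st and 33rd of 12131 genes for *Nppa* in that study (0.89, 0.88, 0.84 and 0.81). *Bmp10* was not tested there. In the peptide study these 4 ranked 224th, 208th, 110th and 193rd of 11964 (0.77, 0.78, 0.81 and 0.78), and *Bmp10* 1741st (0.52). The nearest genes in the antibody study were *Hectd2os*, *Klhl34* and *Aacs* for *Nppb* (0.897, 0.897 and 0.885) and *Lrig1*, *Dsg2* and *Erbb4* for *Corin* (0.947, 0.932 and 0.929). They were *Pbxip1*, *Zfp579* and *Gbp4* for *Npr1* (0.865, 0.862 and 0.859), *Txlng*, *A930004J17Rik* and *Gga3* for *Npr2* (0.891, 0.826 and 0.818), and *Tmem108*, *Plvap* and *Enpp6* for *Npr3* (0.891, 0.888 and 0.874). No gene was among the nearest 3 of the same member in both studies. *Nppa* and *Nppb* ranked hearts with a rho of 0.55 and 0.53, and *Npr3* and *Corin* with 0.74 and 0.51.

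The other ligand of the family, *Nppc*, had 4 counts in 14 hearts and 2 in 16, and *Ostn*, which encodes a peptide that competes for the clearance receptor, had 4 and 12, too few to test. Of the convertases, *Furin*, which cleaves the B-type prohormone, was at a median of 171 CPM with Aβ42 and 183 CPM with ScrAβ42, with 5 of 7 Aβ42 hearts below every ScrAβ42 heart and a log2 fold change of -0.19 (edgeR, unadjusted p = 0.0496, adjusted p = 0.761). *Pcsk6*, which encodes a convertase that activates corin, was at a median of 51.96 against 63.8 CPM, again with 5 of 7 below every ScrAβ42 heart, and its log2 fold change was -0.28 with a standard error of 0.08 (unadjusted p = 0.00283, edgeR adjusted p = 0.641). With 3D6 the log2 fold changes were 0.16 for *Furin* and -0.09 for *Pcsk6*. The third tested convertase, *Pcsk5*, had log2 fold changes of 0.04 and 0.18. The unadjusted threshold was passed by 2 of 3 tested genes with Aβ42, both lower, and by 0 of 3 with 3D6, where 6.51% and 3.64% of all genes passed it, and lists this short allow no reading beyond the genes named.

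Among 5 genes of peptide breakdown, *Mme* (neprilysin), *Ide*, *Dpp4*, *Ace* and *Ece1*, none had an unadjusted p under 0.05 in edgeR in either study, and *Mme* was at medians of 10.5 and 12.2 CPM with Aβ42 and ScrAβ42 and of 8.27 and 6.89 CPM with 3D6 and control antibody. For the cGMP kinases and other guanylyl cyclases 3 of 6 genes could be tested, and 0 of 3 passed the unadjusted threshold in either study. With total-count scaling, 1 gene of peptide breakdown and 1 of this list passed it with 3D6, beside 529 of 12274 genes, of which 438 were lower. *Prkg1*, the main cGMP-dependent kinase, had log2 fold changes of -0.03 and 0.17. Of the cGMP phosphodiesterases and exporters, 0 of 11 passed with Aβ42 and 0 of 12 with 3D6, and their median log2 fold changes were 0.04 and -0.09, where all genes tested had 0.0016 and -0.0098. The unadjusted threshold was passed by 6.51% and 3.64% of all genes tested, so counts of 0 in lists this short allow no reading. *Pde5a*, which breaks down cGMP of the nitric oxide branch, had log2 fold changes of 0.54 and -0.12, with 34.4 CPM in its highest Aβ42 heart beside a median of 6.53. *Pde9a*, which has been tied to natriuretic peptide cGMP, had -0.33 and -0.29.

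Of 7 tested substrates and effectors of the kinase, 1 passed the unadjusted threshold in each study, beside 6.51% and 3.64% of all genes tested. *Rgs2*, a brake on G protein signalling that cGMP-dependent kinase activates, was at 45.6, 93.4 and 101 CPM in the lowest, median and highest Aβ42 heart and at 34.8, 49.4 and 58.9 CPM with ScrAβ42. It was above every ScrAβ42 heart in 6 of 7 Aβ42 hearts, and its log2 fold change was 0.83 with a standard error of 0.16 (edgeR, unadjusted p = 0.000121, adjusted p = 0.241). With 3D6 it was 0.03. *Vasp*, an actin regulator and classical substrate of the kinase, was below the control median in 8 of 8 3D6 hearts with a log2 fold change of -0.24 (edgeR, unadjusted p = 0.0228, adjusted p = 0.946), and 0.14 with Aβ42.

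**Figure D5:**
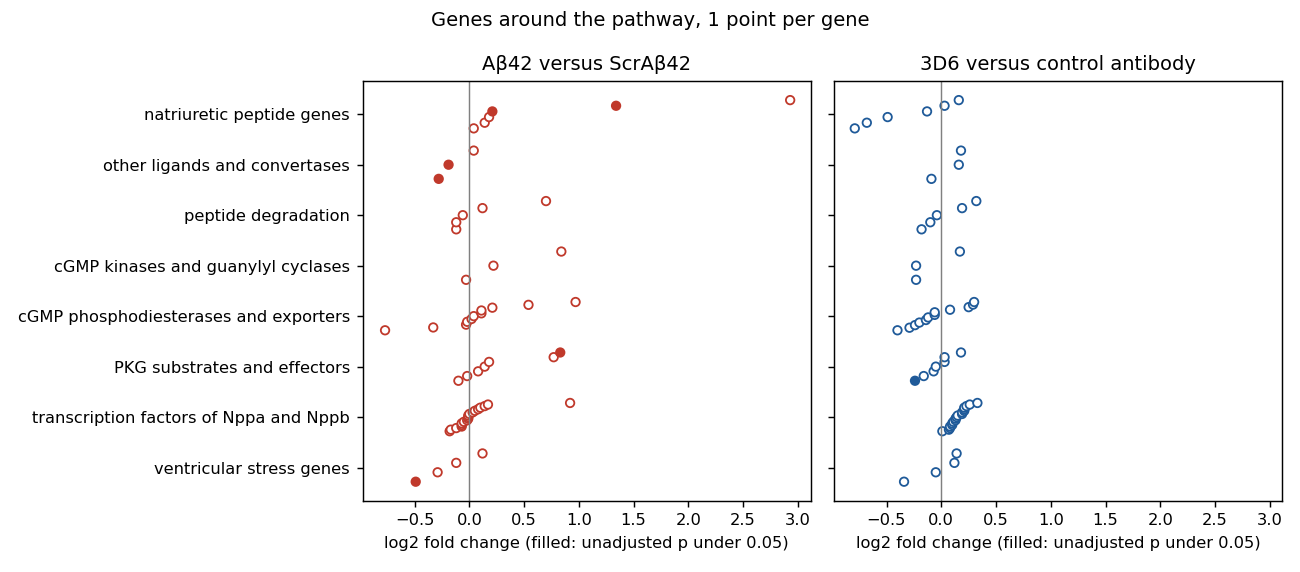
Fitted log2 fold change of every tested gene in the 8 lists, 1 point per gene, for Aβ42 versus ScrAβ42 (left) and 3D6 versus control antibody (right), with filled points for an unadjusted p under 0.05. With Aβ42 the filled points outside the 6 genes are *Furin*, *Pcsk6*, *Rgs2* and *Myh7*, and with 3D6 *Vasp*.

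The 19 transcription factors known to act on *Nppa* and *Nppb*, among them *Gata4*, *Nkx2-5* and *Tbx5*, gave no unadjusted p under 0.05 in either study. Of all genes tested, 6.51% and 3.64% had one. With Aβ42 their log2 fold changes ran from -0.18 to 0.92, with a median of -0.01, and the largest was that of *Tbx5*, with 163 CPM in its highest Aβ42 heart beside a median of 40.5. With 3D6 they ran from 0.01 to 0.33 with a median of 0.14, and 19 of 19 were above 0, or 18 of 19 when counts were scaled to the total count. Of all 12274 genes tested, 47.4% were above 0. In the same comparison 5 of 5 endothelial, 5 of 5 fibroblast and 5 of 5 smooth muscle and pericyte markers were below 0, with median log2 fold changes of -0.15, -0.12 and -0.16, and their part in the values of the transcription factors was not tested. Of 4 genes that are often followed with the ligands as signs of ventricular stress, *Myh7*, *Acta1*, *Ankrd1* and *Xirp2*, *Myh7* passed the unadjusted threshold with Aβ42, and 2 of 4 did with total-count scaling, beside 780 and 654 of 11985 genes. *Myh7*, the slow myosin heavy chain, was at a median of 474 against 639 CPM, below the ScrAβ42 median in 7 of 7 hearts, with a log2 fold change of -0.49 (edgeR, unadjusted p = 0.00449, adjusted p = 0.641), the opposite sign to *Nppa*. None of the 4 passed with 3D6, beside 447 of 12274 genes.

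Markers of other cells also differed between hearts. In the peptide study, *Bmp10* (log2 fold change 6.81), *Plin1* (2.66) and *Ucp1* (9.13) had an unadjusted p under 0.05 in edgeR, but with medians of 0.578, 0.77 and 0.373 CPM in Aβ42 hearts and highest values of 1205, 84.5 and 247 CPM, these fits rest on few hearts. The summed adipocyte markers had a median of 4.62 and a highest value of 519 CPM with Aβ42, against 0.358 and 48.4 CPM with ScrAβ42. For the summed mesothelial markers these were 85.1 and 174 CPM against 46.4 and 79.3 CPM, and for the 5 smooth muscle and pericyte markers 880 and 2219 CPM against 804 and 1094 CPM. In the antibody study, *Pecam1* (-0.23) and *Wt1* (-0.45) had an unadjusted p under 0.05 with 3D6. The sums of adipocyte, mesothelial, smooth muscle and pericyte, endothelial, fibroblast and macrophage markers all overlapped between the groups of each study. Beyond the fits with atrial markers given above, the part of these cells in the values of the 6 genes was not tested.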

How the data were processed

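Left ventricular RNA of 30 mice was sequenced from total RNA libraries of a stranded kit. The authors trimmed reads, mapped them to the GENCODE mouse transcriptome (GRCm38) with Salmon, and deposited raw counts per Ensembl gene for the peptide study and estimated counts per transcript for the antibody study, not normalized. How transcripts were brought to genes in the former is not given in the sources used here. Of the count columns, 1 of the peptide study could not be tied to any labelled mouse and was left out. Its name begins with the prefix of the ScrAβ42 columns, and what including it would change was not tested. For the antibody study, gene values are sums over transcripts by GENCODE vM21, rounded to whole numbers. That annotation lists 99.21% of the transcripts, and 99.48% of the genes of the peptide study. This release is older than the one the authors mapped to, of the same build.

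Each study was fitted separately with edgeR 4.0.16 (R 4.3.3), using TMM scaling, a minimum mean count of 10, the two-sided quasi-likelihood test, and Benjamini-Hochberg adjustment over all genes tested. CPM are TMM-scaled, and log2 CPM use a prior count of 2. Ratios used counts plus 0.5 and exact permutation tests (scipy 1.17.1). The edgeR fit and the rank correlation were tested on simulated data. Alternatives were DESeq2 1.42.0, limma-voom (limma 3.58.1), RLE factors, total-count scaling, other filters, the atrial marker covariate, values over 2 SD from the group mean left out, and leaving out each heart. DESeq2 with outlier counts kept, and leaving out hearts over 100 CPM of atrial markers, were chosen after seeing the data.

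The 6 genes, the gene lists and the tests were chosen with earlier results of these data known. Genes named were the 6, *Nppc*, *Furin*, *Pcsk6*, *Mme*, *Prkg1*, *Pde5a*, *Pde9a*, list genes with an unadjusted p under 0.05 in either comparison, and the 3 genes of highest Spearman's rho per gene and study. Others named as list members, or for their levels, fall outside that rule and were picked after their values were seen. Precision is limited by 7 or 8 hearts a group and, for *Nppa*, by counts from 6 to 37978 per heart.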

Additional observations from a re-analysis of the deposited data

Results flagged for a closer look

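Each gene and ratio was examined within each group for a heart far from the others, by Dixon's test at the 95% level, in 32 groups of values, of which 4 were flagged. Chance flags about 1 in 20. The heart ScrAbeta42_3448 had a log2 CPM of 10.30 for *Nppa*, where the next highest heart had 5.09, and a log2 ratio of *Nppa* to *Nppb* of 3.67, where the next had -0.46. The same heart had 3652 CPM of atrial markers, the highest of its group. The heart Abeta42_3457 had a log2 CPM of 6.25 for *Npr1*, where the next had 5.23. The heart 3D6_17 had a log2 CPM of 5.41 for *Npr2*, where the nearest heart had 5.65.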

How the results depend on the processing

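The count of the 6 genes called, at an adjusted p under 0.05, was 0 in both studies under every alternative fitted across all genes, which leaves out the permutation tests of single genes given below. The count of all genes called with Aβ42 was 12 with DESeq2, 12 with DESeq2 when outlier counts were kept, and between 0 and 3 when 1 heart was left out (3 without Abeta42_3452, 1 without ScrAbeta42_3448). With 3D6 it was 1 with DESeq2 when outlier counts were kept. In the peptide study the log2 fold change of *Nppb* turned to -0.02 with limma-voom and in the permutation test, to -0.08 with the atrial marker covariate, and ran from -0.05 (without Abeta42_3458) to 0.35 when 1 heart was left out. That of *Npr1* turned to -0.16 with the covariate, -0.15 without the hearts over 100 CPM of atrial markers and -0.09 without values over 2 SD from the mean, and ran from -0.10 (without Abeta42_3457) to 0.21 when 1 heart was left out. That of *Npr2* turned to -0.06 and -0.05 with the first 2 of these, and ran from -0.01 (without Abeta42_3457) to 0.07. For *Nppa* the difference in mean log2 CPM was 4.24 without values over 2 SD from the mean (unadjusted exact permutation p = 0.0186). The value left out was that of ScrAbeta42_3448, the only ScrAβ42 heart over 100 CPM of atrial markers. It was the highest of its group, so the difference had to widen, and the p does not allow for this. For *Corin* the difference was 0.21 in the unadjusted exact permutation test (p = 0.021). In the antibody study *Nppa* turned to 2.14 with DESeq2 and 0.69 without values over 2 SD, and ran from -1.26 to 2.27 (without Con_15) when 1 heart was left out. It gave no value where 10 counts were asked of every heart. *Npr2* turned to -0.02 with total-count scaling and -0.03 without the hearts over 100 CPM of atrial markers. It was 0.14 (unadjusted exact permutation p = 0.0152) without values over 2 SD, those of 3D6_17 and Con_22. As the lowest 3D6 and the highest control value were left out, the difference had to widen, and the p does not allow for this. The *Nppa* to *Nppb* difference with Aβ42 was 4.84 in medians (exact permutation p = 0.0583), 0.48 without the hearts over 100 CPM of atrial markers, and from 2.85 to 4.17 when 1 heart was left out, with an unadjusted p of 0.0501 to 0.0629 without any 1 of Abeta42_3451, Abeta42_3455, Abeta42_3457, Abeta42_3458, ScrAbeta42_3441, ScrAbeta42_3445 and ScrAbeta42_3449. The *Npr3* to *Npr1* difference was 1.11 without the hearts over 100 CPM of atrial markers and from 0.90 to 1.4 when 1 heart was left out, with an unadjusted p of 0.0524 to 0.0664 without any 1 of Abeta42_3455, Abeta42_3456, Abeta42_3457, Abeta42_3458, ScrAbeta42_3442, ScrAbeta42_3445 and ScrAbeta42_3449. With 3D6 the first and second of these differences turned to -0.39 and 0.04 without the hearts over 100 CPM of atrial markers. For each of these changes the cause was not tested. No paired analysis was possible because the groups compared share no replicate numbers.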
